A study of Mus musculus with 9 samples.

Results

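*Runx1*, *Runx2* and *Runx3* encode the 3 DNA-binding Runt-related transcription factors of the mouse, and *Cbfb* encodes core-binding factor beta, the partner that they share. These 4 genes were taken by symbol from a deposited table of 54532 genes. The table held RNA-seq read counts of lambdoidal junction tissue, the place where the nasal and maxillary prominences of the embryonic face come together to form the upper lip and primary palate. The study asked which genes change while the prominences fuse. All 9 libraries were from C57BL/6J embryos, and stage was the only difference between groups that the labels named, with no allele or treatment given. Batch and dissection of the libraries are not given in the sources used here. The 3 libraries of E10.5 came from embryos with 35–39 somites, the 3 of E11.5 from embryos with 45–47 somites and the 3 of E12.5 from embryos with 48–51 somites. Each library was a pool of whole tissue from 17–18 embryos whose sex was not given. The spread between libraries is therefore a spread between pools, and no value belongs to 1 embryo or 1 cell type. Depth was 16581009–20836804 counts. The comparisons are called the first interval (E11.5 vs. E10.5), the second interval (E12.5 vs. E11.5) and the whole period (E12.5 vs. E10.5).

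Runx proteins bind DNA through the Runt domain, and Cbfb, which does not bind DNA on its own, raises their affinity for DNA and their stability. *Runx1* is known for the first definitive blood stem cells, *Runx2* for the commitment of mesenchyme to osteoblasts, and *Runx3* for proprioceptive sensory neurons and cytotoxic T cells. In the face, *Runx2* is known to mark mesenchyme that will form bone, and *Runx1* is also known in oral and palatal epithelium. Each Runx gene has a distal and a proximal promoter, and counts per gene add up the transcripts of both.

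On GRCm38, *Runx1* lies at chr16:92601466-92826149 on the minus strand, *Runx2* at chr17:44495987-44814797 on the minus strand, *Runx3* at chr4:135120652-135177990 on the plus strand and *Cbfb* at chr8:105170674-105217989 on the plus strand. The 5′ ends of the 3 Runx genes share a tandem pair of the letters that Runx proteins bind. RefSeq windows of GRCm38.p6, from 250 bases before to 50 bases after a gene start, were searched for AACCACA on both strands (TGTGGTT on the other strand), and 5.27% of 32851 windows of 27025 genes held it. The tandem pair AACCACAGAACCACA, which holds that motif, was found in 4 windows (0.0122%), those of *Runx1*, *Runx2*, *Runx3* and *Gm16225*, and the *Gm16225* window overlaps that of *Runx3* on the opposite strand. The pair was read from the run that the Runx windows share, so that their own matches follow from the choice. The 3 blocks are shown because they are the sequence that the Runx members have in common, with AACCACA in capitals.
Runx1: aaacAACCACAgAACCACAagttgggt
Runx2: aaacAACCACAgAACCACAagtgcggt
Runx3: cctcAACCACAgAACCACAaggccagg
The *Runx1* block lies at chr16:92826025-92826051 (minus strand) in an exon outside the coding sequence, and its first AACCACA begins 27 bases after the RefSeq start. In the *Runx2* block, at chr17:44814583-44814609 (minus strand), the motif begins 22 bases after the start, in an exon where the block overlaps annotated coding sequence. In the *Runx3* block, at chr4:135120506-135120532 (plus strand), it begins 135 bases before the start and lies in no exon of *Runx3*. Each block was compared with exons of its own gene only. The longest run that the 3 windows share is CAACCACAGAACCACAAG, of 18 bases. The other windows of *Runx1* (GC content 69.0%) and *Runx3* (77.3%) and the window of *Cbfb* (69.7%) held no ACCACA on either strand, a shorter motif contained in AACCACA and found in 16.8% of all windows. A match of letters is a description, and binding was not measured.

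Over the whole period the 3 Runx genes rose. *Runx2* rose 13.5-fold in the first interval and 1.66-fold in the second. *Runx3* went from the limit of detection to an FPKM (counts per gene length and library size) above that of *Runx1* in each E12.5 library, and *Runx1* rose 2.48-fold over the whole period. *Cbfb*, the most abundant of the 4 at every stage, passed the test in no comparison.

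**Figure D1:**
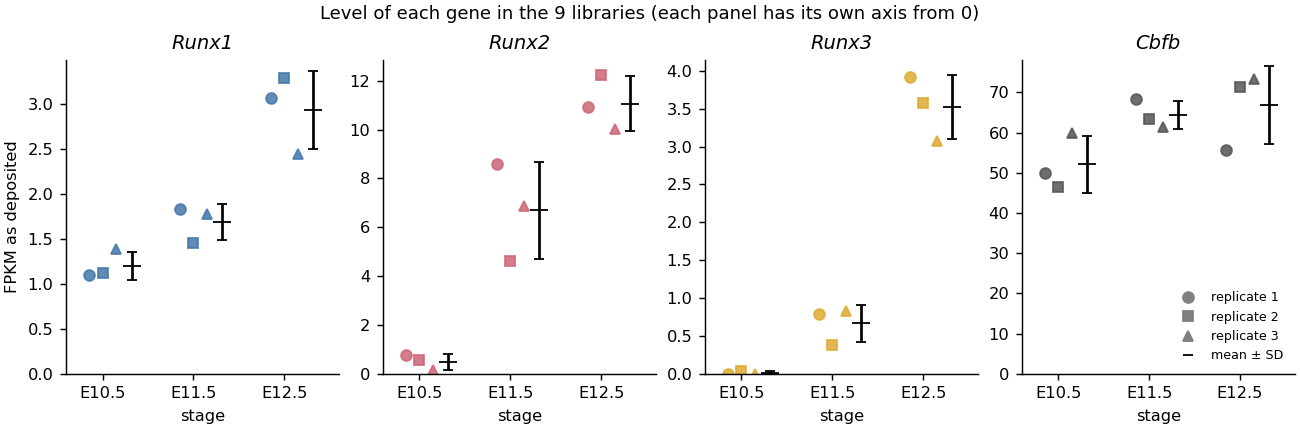
FPKM as deposited (y axis, each panel with its own scale from 0) of Runx1, Runx2, Runx3 and Cbfb by stage (x axis). Circles, squares and triangles are replicates 1, 2 and 3, and the black bars are the mean ± SD of the 3 libraries. Each Runx gene has its 3 E12.5 libraries above its 3 E11.5 libraries and these above the E10.5 libraries, while the Cbfb libraries of E12.5 span a range (55.7–73.4) that overlaps both earlier stages.

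*Runx1*, the family member known for blood stem cells, had 226, 233 and 271 counts in replicates 1, 2 and 3 of E10.5. The E11.5 replicates had 413, 369 and 411 counts and the E12.5 replicates 671, 744 and 500 counts. As normalised read counts (CPM, on library sizes scaled by the trimmed mean of M values), the level of *Runx1* was 14.6 ± 1.91, 20.5 ± 2.44 and 35.9 ± 5.40 at the successive stages (mean ± SD, n = 3 at each). No library of a later stage was as low as any library of an earlier stage. *Runx1* was 1.41-fold higher in the first interval (log2 fold change 0.50 ± 0.16 SE), which did not pass the test (edgeR adjusted p = 0.0835). It rose in the second interval by a log2 fold change of 0.80 ± 0.16 (edgeR adjusted p = 0.00796) and over the whole period by 1.31 ± 0.20 (edgeR adjusted p = 9.51e-04). Leaving out E11.5 replicate 2 (0.69, edgeR adjusted p = 0.0583) or E12.5 replicate 1 (0.77, edgeR adjusted p = 0.0518) ended the call in the second interval.

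*Runx2*, the osteoblast regulator, had 119, 85 and 21 counts in the E10.5 replicates, 1427, 860 and 1163 counts in the E11.5 replicates and 1752, 2031 and 1504 counts in the E12.5 replicates. Its level went from 4.44 ± 2.92 CPM to 59.8 ± 17.8 CPM and then to 99.3 ± 9.92 CPM (mean ± SD, n = 3). The lowest E11.5 library was thus far above the highest E10.5 library, and the lowest E12.5 library was above the highest E11.5 library. In the first interval *Runx2* had a log2 fold change of 3.75 ± 0.49 with a 95% interval of 2.62–4.88 (edgeR adjusted p = 0.00372). In the second it had a log2 fold change of 0.73 ± 0.20 with a 95% interval of 0.30–1.16 (edgeR adjusted p = 0.0346). The whole period gave a log2 fold change of 4.49 ± 0.44 (22.4-fold, edgeR adjusted p = 4.41e-05). The call in the second interval was lost on leaving out E11.5 replicate 2 (0.50, edgeR adjusted p = 0.124), E11.5 replicate 3 (0.73, 0.106) or E12.5 replicate 1 (0.74, 0.125) and in an edgeR fit on all 9 libraries (0.73, 0.228). The rise in the first interval passed the test in every fit that left out 1 library, with log2 fold changes of 3.32–4.25. Of the *Runx2* exon sequence, 5.87% is shared with the antisense gene *Runx2os1*, which had 0–9 counts in any library.

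*Runx3*, the family member known for sensory neurons and T cells, had 0, 3 and 0 counts in the E10.5 replicates. A count of 0 allows up to 3 counts, and a stage whose libraries all had 3 counts or fewer was taken as at the limit of detection. The gene had 74, 40 and 79 counts in the E11.5 replicates and 356, 336 and 261 counts in the E12.5 replicates, which correspond to 3.36 ± 1.24 and 17.9 ± 2.25 CPM (mean ± SD, n = 3). No E11.5 library reached the lowest E12.5 library. *Runx3* rose in the first interval (edgeR adjusted p = 0.00406) and over the whole period (edgeR adjusted p = 3.36e-06). Its mean level was 18.7-fold at E11.5 and 99.8-fold at E12.5 that of 3 counts per E10.5 library. These bounds leave out the spread between the later libraries. The lowest E11.5 library, replicate 2, was at 1.92 CPM, against 0.179 CPM for 3 counts at E10.5. In the second interval, where both stages had counts, *Runx3* rose 5.34-fold (log2 fold change 2.42 ± 0.26, edgeR adjusted p = 2.77e-04).

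*Cbfb*, the shared partner, had 2977, 2798 and 3394 counts in the E10.5 replicates, 4463, 4639 and 4102 counts in the E11.5 replicates and 3520, 4658 and 4333 counts in the E12.5 replicates. Its level was 183 ± 24.5, 226 ± 12.4 and 236 ± 32.8 CPM at the successive stages (mean ± SD, n = 3). The E11.5 libraries were all above the E10.5 libraries, but the E12.5 libraries, of which replicate 1 was the lowest, overlapped those of both other stages. Its log2 fold change was 0.31 (95% interval 0.03 to 0.59) in the first interval, 0.05 (−0.24 to 0.35) in the second and 0.37 (−0.03 to 0.78) over the whole period. The edgeR adjusted p-values were 0.145, 0.812 and 0.168. Without E10.5 replicate 3 the first of these passed the test (log2 fold change 0.42, edgeR adjusted p = 5.15e-04). With a fitted GC trend taken out of every library, the first and the last passed it (0.31 and 0.42, edgeR adjusted p = 0.0171 and 0.0404).

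**Figure D2:**
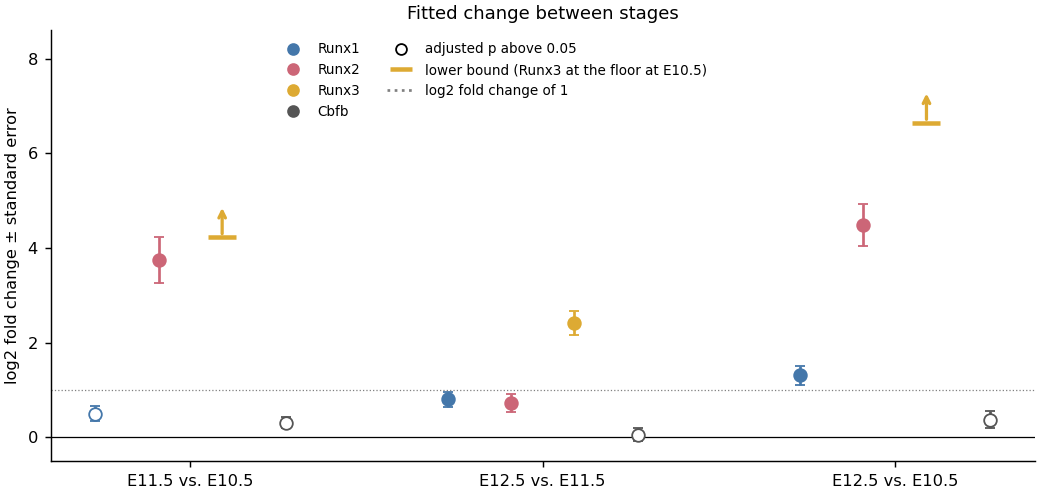
Log2 fold change between 2 stages (y axis) for each of the 3 comparisons (x axis), with points for the fitted value, error bars for ± 1 standard error, and open points where the adjusted p was above 0.05. Yellow bars with arrows are bounds for Runx3, its mean later level against 3 counts per E10.5 library, without the spread between libraries. The dotted line is a log2 fold change of 1. Runx2 has its larger value before E11.5 (3.75, then 0.73), and all 3 Cbfb points are open.

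The DEGs of a comparison were the genes with an adjusted p of at most 0.05 and a log2 fold change of 1 or more in size. In the first interval 2 of the 4 genes (*Runx2* and *Runx3*) were upregulated DEGs, where 3.46% of 15708 genes tested were. Over the whole period the 3 Runx genes were, where 9.97% of 15899 genes were. In the second interval *Runx3* was, where 4.14% of 15808 genes were. *Runx1* and *Runx2* rose in the second interval below that fold, so that 3 of the 4 genes had passed the test there, beside 7.61% of all genes tested that rose. The later libraries were all above the earlier ones for 4 of the 4 genes in the first interval, where this held for 18.3% of genes tested. They were all above for the 3 Runx genes and not for *Cbfb* over the whole period (22.0% of genes tested) and in the second interval (18.5%). The 3 comparisons share libraries and are not independent of each other. Tested over the 3 stages together, *Runx1*, *Runx2* and *Runx3* varied with stage (edgeR adjusted p = 3.67e-04, 2.88e-05 and 2.23e-06), as did 28.3% of 16375 genes, and *Cbfb* did not pass (edgeR adjusted p = 0.152).

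Whether a gene changed more before or after E11.5 was tested as the log2 fold change of the second interval minus that of the first, on all 9 libraries. The difference was negative for *Runx2*, at −3.01 ± 0.61 (edgeR adjusted p = 0.0346), and 0.623% of 16375 genes had a negative difference that passed. This call was lost in 6 of 9 fits that left out 1 library, those without E10.5 replicate 2, any E11.5 replicate, or E12.5 replicates 1 or 3, with differences of −3.43 to −2.57 and edgeR adjusted p-values of 0.0531–0.239. For *Runx1* the difference was 0.31 ± 0.30 (edgeR adjusted p = 0.732) and for *Cbfb* −0.25 ± 0.26 (edgeR adjusted p = 0.753), neither of which passed. For *Runx3* the edgeR adjusted p of the difference was 0.120, and its size depends on an E10.5 level at the limit of detection.

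**Figure D3:**
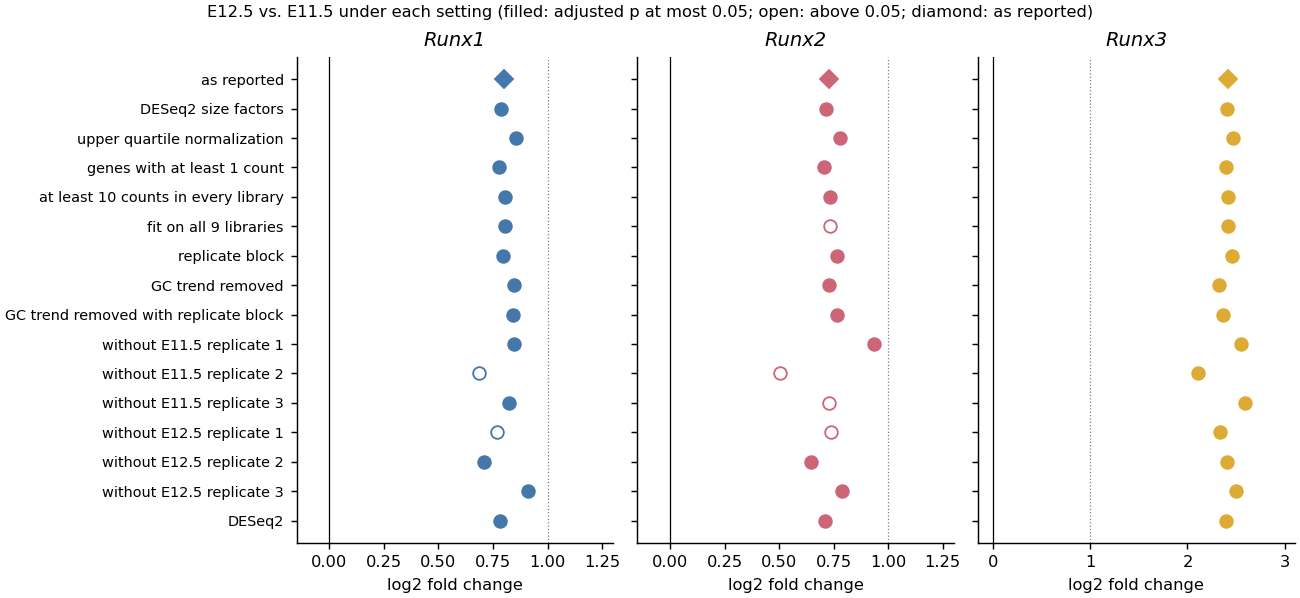
Log2 fold change in E12.5 vs. E11.5 (x axis) of Runx1, Runx2 and Runx3 as reported (diamond) and under each other setting (y axis), with filled symbols for an adjusted p of at most 0.05, open symbols above it, a solid line at 0 and a dotted line at 1. All values are above 0. Runx3 is filled throughout at 2.11 or more, Runx1 is open under 2 settings and Runx2 under 4.

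Levels of different genes were compared per length, in FPKM. At E10.5 the order was *Cbfb* (52.1 ± 7.01), *Runx1* (1.2 ± 0.16), *Runx2* (0.496 ± 0.324) and *Runx3* (0.012 ± 0.020), with no overlap between neighbours (mean ± SD, n = 3). At E11.5 *Runx2* (6.70 ± 1.99) stood above *Runx1* (1.69 ± 0.20), with *Cbfb* (64.4 ± 3.5) still highest and *Runx3* (0.664 ± 0.246) lowest, again with no overlap. At E12.5 *Cbfb* (66.8 ± 9.70) and *Runx2* (11.1 ± 1.11) stood apart, whereas *Runx3* (3.52 ± 0.422) and *Runx1* (2.94 ± 0.437) overlapped between libraries. Within each of the 3 E12.5 libraries *Runx3* was above *Runx1*, with 3.92 against 3.07 in replicate 1, 3.58 against 3.295 in replicate 2 and 3.08 against 2.45 in replicate 3. This order depends on the gene lengths used, 12025 bases for *Runx1* and 5003 for *Runx3*, since *Runx1* had the higher count in each E12.5 library. The lengths of the transcripts present were not measured. The 2 values of a library share its depth, and their difference was not tested.

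The make-up of the Runx transcripts differed between stages. The share of *Runx1* in the summed FPKM of the 3 Runx genes was 58.3%, 65.5% and 90.5% in replicates 1, 2 and 3 of E10.5, then 16.3–22.6% in the E11.5 libraries and 15.8–17.2% in the E12.5 libraries. The share of *Runx2* was 41.7%, 32.5% and 9.54% in the E10.5 replicates, 71.6–76.7% a day later and 61.0–64.5% in the last stage. *Runx3* made up 0–2.03%, 5.88–8.70% and 18.7–21.9%. The main Runx transcript by this measure was thus *Runx1* in every E10.5 library and *Runx2* in every later library. The summed Runx FPKM was 1.71 ± 0.176, 9.05 ± 2.40 and 17.5 ± 1.81 at the successive stages (mean ± SD, n = 3). *Cbfb* was at 26.5–39.2 times this sum in the E10.5 libraries, 6.09–9.80 times in the E11.5 libraries and 3.11–4.72 times in the E12.5 libraries, so that the transcript of the shared partner exceeded the summed Runx transcripts in all 9. These shares and ratios are descriptions of transcript levels, and protein was not measured.

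**Figure D4:**
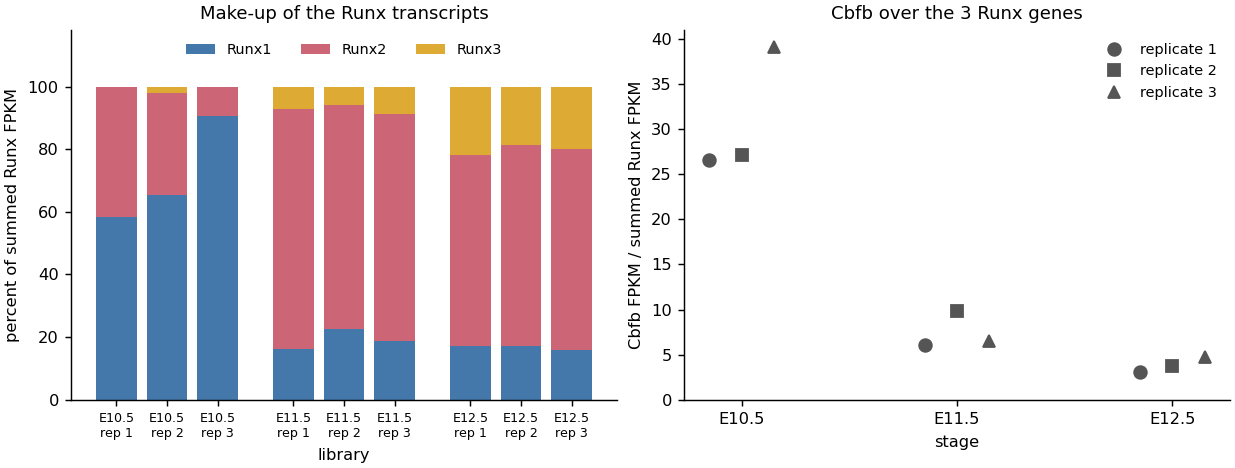
Left, the percent of summed Runx FPKM (y axis) that Runx1, Runx2 and Runx3 each made up in the 9 libraries (x axis). Right, Cbfb FPKM divided by summed Runx FPKM (y axis) by stage (x axis), with 1 symbol per library. Runx1 takes 58.3–90.5% of the bar at E10.5 and at most 22.6% later, and the ratio on the right goes from 26.5–39.2 in the E10.5 libraries to 3.11–4.72 in the E12.5 libraries.

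Among the E10.5 libraries, replicate 3 stood apart. The SD over genes of its log2 differences from the other two was 0.703–0.711, against 0.393 between replicates 1 and 2. It had the lowest *Runx2* count (21) and the highest *Runx1* and *Cbfb* counts of its stage. The summed CPM of 11 face mesenchyme markers was 1284 in it, against 2167 and 2169 in replicates 1 and 2, and that of 11 epithelium markers was 1049 against 577 and 656. The 10 endothelium markers summed to 138 CPM in it and to 396 and 381 CPM in the others. Across genes, its deviation from the stage mean had a Spearman correlation with GC content of −0.546, against 0.438 and 0.469 in replicates 1 and 2. The part of these cell types and of the GC trend in the values of replicate 3 was not tested. Without it, the *Runx2* log2 fold change in the first interval was 3.32 and *Runx1* passed the test there (0.61, edgeR adjusted p = 0.00243).

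Marker levels also moved with stage. Summed face mesenchyme markers were at 1284–2169, 2938–3146 and 3016–3393 CPM at the successive stages, and 5 of 11 rose and 0 fell in the first interval (*Pdgfra*, *Msx1*, *Alx1*, *Twist2* and *Prrx1*). Of 11 macrophage markers 0 passed in that interval and 2 rose over the whole period (*Mrc1* and *C1qa*), with sums of 30.1–43.5, 40.6–45.9 and 52.7–58.1 CPM. Of 6 megakaryocyte markers 4 rose in the first interval (among them *Ppbp*, *Gp1ba* and *Pf4*), with sums of 14.1–26.3, 43.2–49.7 and 39.6–57.6 CPM. The 9 neuron markers summed to 220–246, 263–288 and 382–457 CPM. The 8 forebrain markers, which would mark brain tissue, summed to 287–391, 113–119 and 141–183 CPM, and 7 of them fell and 0 rose in the first interval. Of 10 erythroid markers 4 rose and 3 fell over the whole period, of 11 epithelium markers 2 rose and 3 fell, of 10 endothelium markers 1 rose and 0 fell, of 9 neuron markers 2 rose and 2 fell, and of 3 skeletal muscle markers tested 0 rose and 1 fell. Of all genes tested, 14.0% rose and 10.5% fell over that period, and 6.19% rose and 5.58% fell in the first interval. In bulk tissue, more cells of a type and more RNA per cell cannot be told apart, and the part of these cell types in the Runx values was not tested.

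Most genes on a list of Runx cofactors and related factors passed no test. Of 21 genes of the Groucho and ETO families and other cofactors, 4 rose and 1 fell in the first interval, where 6.19% of all genes tested rose and 5.58% fell. Over the whole period 6 rose and 1 fell (14.0% and 10.5% of all genes), and in the second interval 0 rose and 1 fell (7.61% and 4.57%). Their median log2 fold changes were 0.17 in the first interval, 0.10 over the whole period and −0.11 in the second, against −0.03, −0.01 and 0.02 for all genes. *Runx1t1*, which encodes the corepressor ETO, was at 21.3, 49.3 and 50.3 CPM at the successive stages and rose in the first interval by a log2 fold change of 1.21 (edgeR adjusted p = 0.00741). *Kat6b*, a histone acetyltransferase, *Wwtr1*, which encodes the coactivator TAZ, and *Aes*, a short Groucho protein, also rose in the first interval (0.93, 0.61 and 0.51). The Groucho gene *Tle2* had the largest rise of the list over the whole period (1.43, edgeR adjusted p = 0.0425). *Hipk2*, a kinase that phosphorylates Runx proteins, fell in all 3 comparisons. Its log2 fold change was −0.64 in the first interval, −1.43 in the second and −2.06 over the whole period (edgeR adjusted p = 0.0200, 0.0357 and 0.00448). The E12.5 libraries differed widely, with 271–1211 *Hipk2* counts and 35.6 ± 26.1 CPM (mean ± SD, n = 3). The Groucho genes *Tle1*, *Tle3* and *Tle4* passed no test and had log2 fold changes of −0.20, −0.12 and −0.30 over the whole period.

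Of genes known to control the level or activity of *Runx2*, 5 of 18 tested rose and 1 fell in the first interval, 9 of 19 rose and 0 fell over the whole period, and 4 of 19 rose and 1 fell in the second interval. Their medians were 0.36, 0.62 and 0.30, against −0.03, −0.01 and 0.02 for all genes. Of all genes tested 6.19%, 14.0% and 7.61% rose and 5.58%, 10.5% and 4.57% fell in these comparisons. *Bmp2*, a ligand that induces *Runx2*, was at 2.49, 7.68 and 23.9 CPM and rose by 3.27 over the whole period (edgeR adjusted p = 1.66e-05). *Twist2*, which encodes an inhibitor of the Runx2 protein, rose by 2.49 (edgeR adjusted p = 5.29e-05), with 46.5% of its exon sequence shared with *Gm29100*. Its relative *Twist1* was at 241, 440 and 423 CPM and passed no test, with edgeR adjusted p-values of 0.0932 in the first interval, 0.0704 over the whole period and 0.813 in the second. *Fgf18*, a growth factor of forming bone, had a log2 fold change of −1.88 in the first interval (edgeR adjusted p = 0.0145) and 2.48 in the second (edgeR adjusted p = 5.30e-04). The genes of this list that rose in the first interval included *Bmp2*, *Twist2*, *Msx1* and *Prrx1*. In the second *Twist2*, *Bmp2* and *Dlx3* also rose, and *Msx2* fell. *Twist1*, *Twist2*, *Msx1* and *Prrx1* are also on the face mesenchyme list.

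Among osteoblast genes, *Sp7*, which encodes osterix, the factor that acts after Runx2, was at 1.67 ± 0.687, 7.23 ± 1.62 and 28.7 ± 0.655 CPM (mean ± SD, n = 3). It rose in the first interval (log2 fold change 2.11, edgeR adjusted p = 0.00681) and in the second (1.98, edgeR adjusted p = 1.05e-04). *Col1a1*, which encodes the main collagen of bone and skin, also rose in the first interval (2.69, edgeR adjusted p = 0.00334) and in the second (edgeR adjusted p = 0.00166). *Omd*, osteomodulin, had 3 counts or fewer at E10.5. Its mean level at E12.5 was 18.6-fold that of 3 counts per E10.5 library, a bound without the spread between the E12.5 libraries. Of the 18 list genes in the table, 9 were tested over the whole period, and of these 6 rose and 1 fell (median 1.68), where 14.0% of all genes tested rose and 10.5% fell (median −0.01). The gene that fell was *Ibsp*, bone sialoprotein, which had 14–34 counts in the E10.5 libraries and 2–5 in the E12.5 libraries (−2.73, edgeR adjusted p = 0.00448). In the first interval 5 of 7 tested rose (*Col1a1*, *Sp7*, *Col1a2*, *Phex* and *Sparc*) and 1 fell (*Ibsp*), and in the second 5 of 8 rose (*Omd*, *Sp7*, *Alpl*, *Col1a1* and *Sparc*) and 0 fell. The shares of all genes that rose were 6.19% and 7.61% in these intervals. Of the genes of late osteoblasts and osteocytes, *Bglap*, osteocalcin, had 0–6 counts in any library and was not tested, and *Mepe* had none.

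Cartilage genes, some of which Runx2 and Runx3 are known to control in later chondrocytes, went both ways. Of 13 tested over the whole period, 6 rose and 4 fell (median 0.48), against 14.0% and 10.5% of all genes. The largest rises were those of *Acan*, aggrecan (5.83), and *Col9a2* (2.93), and the largest falls those of *Matn3* (−2.38) and *Hapln1* (−1.29). *Acan* had 2–4 counts in the E10.5 libraries and 134–254 in the E12.5 libraries, so that its fold change rests on a level near the limit of detection. In the first interval 2 rose (*Acan* and *Col9a2*) and 2 fell (*Hapln1* and *Matn3*), and in the second 6 rose and 1 fell (*Matn3*), with medians of −0.29 and 0.38. Of all genes 6.19% rose and 5.58% fell in the first of these and 7.61% and 4.57% in the other. The hypertrophic cartilage genes *Ihh* and *Col10a1* had at most 10 and 5 counts and were not tested.

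**Figure D5:**
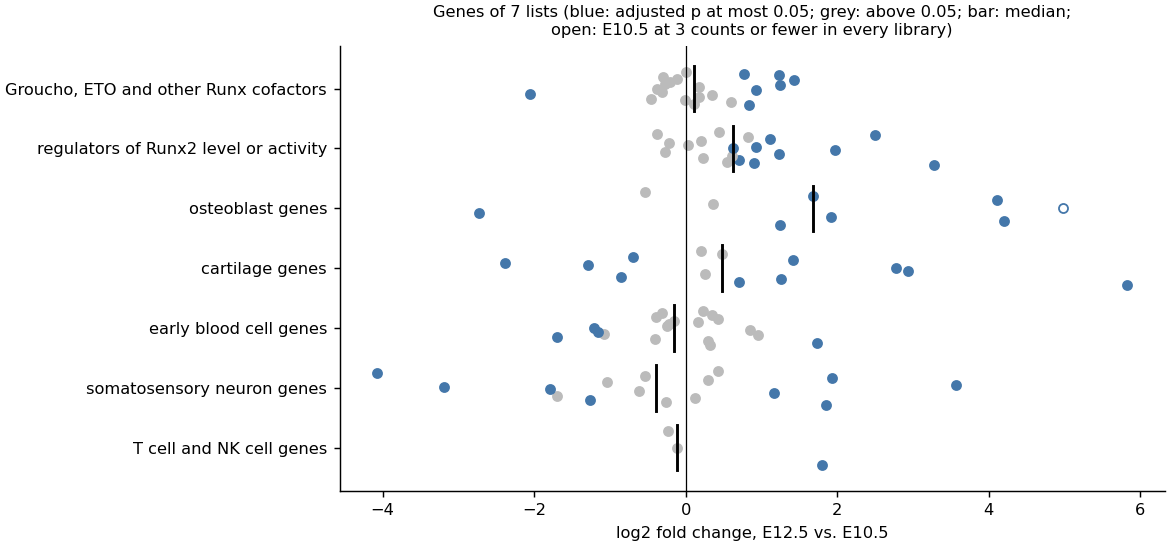
Log2 fold change in E12.5 vs. E10.5 (x axis) of every tested gene of 7 lists (y axis), with blue points for an adjusted p of at most 0.05, grey points above it, black bars for the list medians and an open point for a gene with 3 counts or fewer in each E10.5 library (Omd, drawn at its fitted value). The osteoblast list has the highest median (1.68) and the cofactor list has its median near 0 (0.10).

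Lists for the other known roles of the family were also counted, and their counts stand beside 6.19%, 14.0% and 7.61% of all genes that rose, and 5.58%, 10.5% and 4.57% that fell, in the first interval, the whole period and the second interval. Of 19 early blood genes tested over the whole period, *Cebpa*, a myeloid factor, rose (1.74, edgeR adjusted p = 4.85e-04), and *Gata1* (−1.70), *Kit* (−1.21) and *Ikzf1* (−1.16) fell. In the second interval 1 rose (*Cebpa*) and 6 fell. The list medians were 0.16 in the first interval, −0.15 over the whole period and −0.22 in the second. *Spi1*, a blood target of Runx1, was at 1.99, 1.89 and 2.53 CPM and did not pass over the whole period (0.35, edgeR adjusted p = 0.612). Of somatosensory neuron genes 2 of 14 tested rose (*Etv1* and *Shox2*) and 3 fell (*Prdm12*, *Th* and *Isl1*) in the first interval. Over the whole period 4 of 16 rose, among them *Prph*, peripherin (3.57, from 1–10 to 72–102 counts), and *Shox2* (1.94). In that period 4 fell, among them *Th* (−4.07, from 43–78 to 3–4 counts) and *Prdm12* (−3.19, from 18–34 to 0–6 counts). In the second 4 of 12 rose and 3 fell, and the medians were 0.17, −0.39 and 0.28. *Ntrk3*, the receptor of proprioceptive neurons that express *Runx3*, was at 0.873, 0.488 and 0.561 CPM (−0.62 over the whole period, edgeR adjusted p = 0.492). Of 15 T cell and NK cell genes 3 or 4 were tested in a comparison. The defining markers *Cd3d*, *Cd3g* and *Cd8a* had at most 2 counts, and *Cd3e* and *Cd8b1* had none. *Bcl11b*, which other cell types also express, rose in the first interval (1.32) and over the whole period (1.79), and *Rag1* rose in the first interval (3.20, from 1–4 to 25–35 counts).

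The genes whose pattern over the 9 libraries was most like that of each member were ranked by Pearson's r of log2 CPM among 14514 genes with a mean CPM of at least 1. The 9 libraries share 3 stages, so that genes that rise with stage have a high r with each other. For *Runx1* the highest were *Irak3* (0.992), *Anxa4* (0.989) and *1190002N15Rik* (0.987). For *Runx2* they were *Pax3* (0.997), *Olfml3* (0.995) and *Tspan11* (0.994). For *Runx3* they included *Cacna2d3* (0.996) and *Rd3* (0.993), with 27.3% of the *Rd3* exons shared with *Gm26670*. For *Cbfb* they were *Klhl4* (0.987), *Kbtbd7* (0.970) and *Kifap3* (0.967). An r above 0.9 was found with 534 genes for *Runx1*, 758 for *Runx2*, 864 for *Runx3* and 77 for *Cbfb*. Among the members r was 0.945 between *Runx2* and *Runx3*, 0.912 between *Runx1* and *Runx3*, 0.781 between *Runx1* and *Runx2*, and 0.638–0.679 between *Cbfb* and each Runx gene.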

How the data were processed

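Reads were mapped by the authors to the mouse genome (GRCm38/mm10) with HISAT2 2.0.5, per the submitters' processing notes, and counted per gene with featureCounts. The deposited counts are whole reads per gene and library, without normalization. The deposited FPKM values are the authors' counts divided by gene length and library size, with divisors of 0.916–1.07 times the count total. The table also holds the authors' own mean normalized signal, log2 fold change and p-value columns for each pair of stages, which were not used. Whether reads were counted by strand and how reads with several positions were treated is not given in the sources used here. Counts are of PCR reads without molecular identifiers, so bounds against 3 counts cover counting error only. Of the 54532 identifiers, 54409 were found in GENCODE vM21, from which GC content and exon overlaps were taken.

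All genes were fitted in R 4.3.3 with edgeR 4.0.16 (filterByExpr, TMM, quasi-likelihood F test, Benjamini-Hochberg adjustment over all genes tested), each pair of stages on its own 6 libraries. The 3 stages together and the difference between the intervals were fitted on all 9. Intervals are 95% and two-sided. The SE follows from the fold change and F. CPM uses TMM-scaled library sizes of all 9 libraries, and log2 CPM for the likeness of genes has a prior count of 2. Replicates of a stage differed beyond counting noise (9 pairs, chi-square 4.42–68.3 per degree of freedom), and p-values measure the spread between pools. The fitting was also run on simulated data, whose outcome is not reported here and is not used as support. Alternatives were DESeq2 1.42.0, its size factors in edgeR, upper quartile normalization, 2 other filters on low counts (1 count in total, or 10 in each library), 1 fit on the 9 libraries, a block for the replicate number, removal of each library's GC trend (lowess, span 0.3), TPM for the shares, and each library left out in turn. Figures were drawn in Python 3.11.15 with matplotlib 3.10.9.

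The 4 genes and the 7 gene lists and 9 marker lists were chosen with earlier results of these data known. Named list genes are up to 2 with the largest rise and 2 with the largest fall in E12.5 vs. E10.5 among those that passed, and 10 genes chosen by name. Further list genes were named after their values were seen, where few passed. Protein sequences were not used here. Values of some single genes of the lists and of the likeness ranking are not reported here.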

Additional observations from a re-analysis of the deposited data

Results flagged for a closer look

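The change of *Runx2* differed between the 2 intervals by a test of the difference. Its log2 fold change was 3.75 before E11.5 and 0.73 after it, and later minus earlier gave −3.01 (edgeR quasi-likelihood test, adjusted p = 0.0346, 9 libraries). The call was lost in 6 of 9 fits that left out 1 library, with adjusted p-values of up to 0.239. All 3 E11.5 libraries were above all 3 E10.5 libraries. The E10.5 counts behind the first value were 119, 85 and 21.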

How the results depend on the processing

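The first interval is E11.5 vs. E10.5, the second E12.5 vs. E11.5. Of 178 fold changes recomputed, 164 kept their call or lack of one, 6 lost a call and 8 gained one. Of all 385 values recomputed, 12 lost a call, 12 gained one and 0 turned direction with a call. Besides, 1 count of DEGs went from 2 to 1 and another from 3 to 2. The 385 include shares of the Runx genes, which have no threshold. Their TPM values follow from the same counts and lengths as the FPKM values. Leaving out 1 of 3 libraries moves a mean by less than 1 SD, so that these shares could not count as changed. The 133 Runx fold changes were above 0 in 133 fits, and those of *Cbfb* in 44 of 45. With the GC trend removed, *Runx1* (0.49, edgeR adjusted p = 0.0270) and *Cbfb* (0.31, 0.0171) passed in the first interval, *Cbfb* passed over the whole period (0.42, 0.0404), and the stage effect on *Cbfb* passed (adjusted p = 0.0238). With the GC trend removed and a replicate block, the same results were 0.49 (0.0455), 0.31 (0.0361), 0.42 (0.0305) and 0.0372. The replicate block alone changed no call of a member (*Runx2* in the first interval was 3.86, edgeR adjusted p = 0.00304). Same-numbered libraries of different stages had correlations of −0.151 to 0.22, over 0.1 in 2 of 9 pairs. Different-numbered libraries had −0.219 to 0.223. These correlations show no clear pairing by replicate number, but they cannot tell whether equal numbers shared a batch. In a fit on all 9 libraries, *Runx2* in the second interval was 0.73 (0.228). With genes of at least 1 count, the *Runx3* difference between intervals was −3.27 (5.07e-04). With at least 10 counts in every library *Runx3* was not tested against E10.5, which left 1 DEG among the members in the first interval and 2 over the whole period. Leaving out each library in turn gave 0.44–0.61 for *Runx1* and 0.23–0.42 for *Cbfb* in the first interval, 0.69–0.91 for *Runx1* and 0.50–0.93 for *Runx2* in the second interval, −3.52 to −2.57 for the *Runx2* difference between intervals, and adjusted p-values of 0.0296–0.424 for the stage effect on *Cbfb*. The calls gained for *Runx1* and *Cbfb* in the first interval were those without E10.5 replicate 3. The causes were not tested. Depth limits *Runx3* at E10.5, where only a bound can be given.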

Other observations

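The letters AACCACA were also searched in the start windows of the list genes. Over all genes with a window, 1646 of 27025 held them. They were found in the windows of *Dmp1*, *Mmp13* and *Spp1* among 14 osteoblast genes with a window, of *Hapln1* among 13 cartilage genes, of *Ncor1* among 16 cofactors, of *Neurog2*, *Spp1* and *Trpv1* among 17 somatosensory genes, and of *Gzmb*, *Lck* and *Rag1* among 12 T cell and NK cell genes. They were found in the window of 0 of 14 early blood genes and 0 of 13 regulators of *Runx2*. *Dmp1* and *Mmp13* had at most 2 and 1 counts in any library, and *Spp1* was at 0.831 CPM at E10.5 and 0.566 CPM at E12.5. A window of this length leaves out the more distant sequence of these genes, so that a gene without the letters here may hold them elsewhere.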
